A study of Danio rerio with 15 samples.

Results

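The genes described here encode the initiation and elongation factors of cytosolic translation, in zebrafish embryos injected with a morpholino against *esco2* and in their controls. Members were taken by name: every probe set whose only gene symbol in the array's annotation begins with eif or eef and a digit, without the eIF2 kinase genes. Where several probe sets carry a gene's symbol, the brightest on average over the 15 arrays stands for the gene. This gave 63 genes of the 8793 genes with a probe set of their own, from 77 probe sets. Another 2 probe sets that carry such a symbol together with a second gene were left out. The rule itself uses names and brightness, not differences between groups. The members were bright as a group, 56 of the 63 having a mean log2 value at or above the median of all probe sets (5.86) and 1, *eef1a1b*, a mean below the lower quartile (4.25).

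Translation begins when a small ribosomal subunit, loaded with initiator tRNA by eIF2 and bound by eIF1A and eIF3, is brought to the mRNA cap by the eIF4 factors and scans to the start codon. There eIF5 triggers GTP hydrolysis on eIF2, and eIF5B joins the large subunit that eIF6 has kept apart. eEF1A then delivers each aminoacyl-tRNA, eEF2 moves the ribosome along, and eIF5A eases the joining of difficult residues. In embryos most of these genes are expressed in nearly every cell, with a high demand in growing tissue, and duplicated copies of many of them remain in the zebrafish genome.

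RNA was taken from pools of 50 dechorionated whole embryos and hybridized to GeneChip Zebrafish Genome Arrays, 1 pool an array. The embryos had been injected at the 1-cell stage (1 to 2 cells by the study's methods) with a morpholino, an antisense oligonucleotide, against the start codon of *esco2* (*esco2* morphants), or with buffer alone (controls, labelled wild type), and left to develop. At 48 hours post-fertilization (hpf) *esco2* morphants had 4 arrays and controls 3, and at 24 hpf each had 4. Since no array came from embryos given another morpholino, depletion of Esco2 and morpholino injection as such cannot be told apart. Values are the deposited log2 values, which the authors normalized by RMA, and each value stands for the abundance of a transcript in the whole embryo, so that fewer cells of a type and less RNA per cell cannot be told apart. Differences were fitted with limma over all 15 arrays, their p-values were adjusted over 15502 probe sets, and a member was called raised or lowered at an adjusted p under 0.05. Precision is limited by how many arrays a group has, since arrays give no counting depth.

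A translation-blocking morpholino leaves its target transcript in place, so the level of *esco2* does not check the depletion. The transcript was raised in *esco2* morphants at 48 hpf (log2 difference 0.39, adjusted p = 0.0064) and lowered at 24 hpf (-0.31, adjusted p = 0.034). It averaged 8.55 ± 0.18 (SD, n = 4) in *esco2* morphants and 8.16 ± 0.13 (SD, n = 3) in controls at 48 hpf, and 8.85 ± 0.11 (SD, n = 4) in *esco2* morphants and 9.16 ± 0.042 (SD, n = 4) in controls at 24 hpf. Control replicate 3 at 48 hpf stood apart, with a mean correlation of 0.985 to the arrays of its own group across probe sets, against 0.989 to 0.997 for every other array. It was the lowest control array of its time for several members and the highest for others. Among the latter were *eif3i*, *eif3m*, *eif3f*, *eif4a1b* and *eif4g3a*, so it could widen differences in either direction. Counts of members called between *esco2* morphants and controls are therefore also given without it. Counts of tissue markers, of other translation genes and of changes with time are given only with it. Tissue markers moved with the morphant label as well. Of the neuronal markers 5 of 9 were lowered and 0 raised at 48 hpf, with a summed linear signal of 5363 to 6034 in *esco2* morphants and 5734 to 8024 in controls. Of the erythroid markers 3 of 6 were lowered and 0 raised at 48 hpf (13753 to 15291 in *esco2* morphants and 16022 to 16869 in controls). The erythroid list was mixed, with 4 lower and 2 higher at a limma p under 0.05 before adjustment. Of the markers of cycling cells 3 of 8 were lowered and 0 raised at 24 hpf (10035 to 10798 in *esco2* morphants and 12390 to 12792 in controls). No measured marker of these lists had a mean below the lower quartile of all probe sets. At 48 hpf the cycling markers had 1 raised and 2 lowered of 8, and at 24 hpf the neuronal and erythroid lists had 1 lowered each. Heart muscle markers had 2 of 3 raised at 48 hpf and 0 called at 24 hpf, and skeletal muscle markers 1 of 9 raised at 48 hpf and 2 lowered at 24 hpf. Among germ cell and maternal genes 0 of 5 were called at 48 hpf and 1 raised at 24 hpf, and among epidermal genes 1 of 4 was raised at 48 hpf and 0 called at 24 hpf. Of 2 lens genes 1 was raised at 48 hpf and 1 lowered at 24 hpf, and of 5 liver and yolk genes 1 was raised and 1 lowered at 48 hpf and 1 lowered at 24 hpf. Over all probe sets 12.8% were raised and 9.79% lowered at 48 hpf, and 4.43% and 5.33% at 24 hpf. The part of these marker shifts in the results below was not tested.

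At 48 hpf the translation factor genes moved in both directions. In *esco2* morphants 13 of the 63 were raised and 9 lowered (34.9% in all), where 12.8% of all probe sets were raised and 9.79% lowered (22.6% in all). Among genes at least as bright as the median, 33.5% were called in either direction. Of the 56 members that bright 21 were called, so their share lay near that of bright genes in general. The median difference over the members was 0.047, against 0.0073 over all probe sets. None reached a fold of 2, the further threshold of the study, which 0.697% of all probe sets passed upward and 0.213% downward. The raised members lay mainly in the group of start site selection and subunit joining (*eif6*, *eif2d*, *eif5*, *eif1axa*), eIF2 and eIF2B (*eif2s1a*, *eif2b1*, *eif2s2*) and the eIF3 subunit j (*eif3ja*, *eif3jb*), together with *eif4ebp1*. The first group is wider than its name. Beside *eif5*, *eif5b*, *eif1axa* and *eif1axb* it takes in *eif6*, whose product keeps the large subunit apart. It also holds *eif2d* and *eif2a*, whose products can bring tRNA to the small subunit. The lowered members lay among the eEF1 complex (*eef1a1a*, *eef1b2*, *eef1g*), the eIF4A helicases (*eif4a1a*, *eif4a1b*), eIF3 (*eif3i*, *eif3m*, *eif3f*) and eIF4G (*eif4g3a*). All 22 called members had morphant and control arrays that did not overlap. Counting every member, called or not, 17 were higher without overlap and 9 lower, where 14.1% and 11.9% of all probe sets were.

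Without control replicate 3 the counts at 48 hpf were 13 raised and 6 lowered, with 16 of the 22 calls shared. The calls of *eif1axa*, *eif2s1a*, *eif4bb*, *eif3f*, *eif4a1a* and *eef1g* were lost, and *eif2b2*, *eif2b5* and *eef2k* were called raised instead. With the arrays of 48 hpf fitted alone, 5 members were raised (*eif5*, *eif6*, *eif2d*, *eif3ja* and *eif4ebp1*) and 5 lowered (*eif3i*, *eif4a1b*, *eif4g3a*, *eef1a1a* and *eef1b2*), and the calls of the other 12 were lost. For this fit and the one without replicate 3, shares of all probe sets called are not given here. When each array was centred on its ribosomal protein genes, the median of all probe sets at 48 hpf moved up by 0.14, and 26 members were raised and 5 lowered. Raised members then made up 83.9% of the members' calls, against 59.1% on the deposited scale, and over all probe sets the same shares were 85.2% and 56.7%. Of the 22 calls those of *eif3m*, *eif3f*, *eif4a1a* and *eef1g* were lost under centring.

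**Figure D1:**
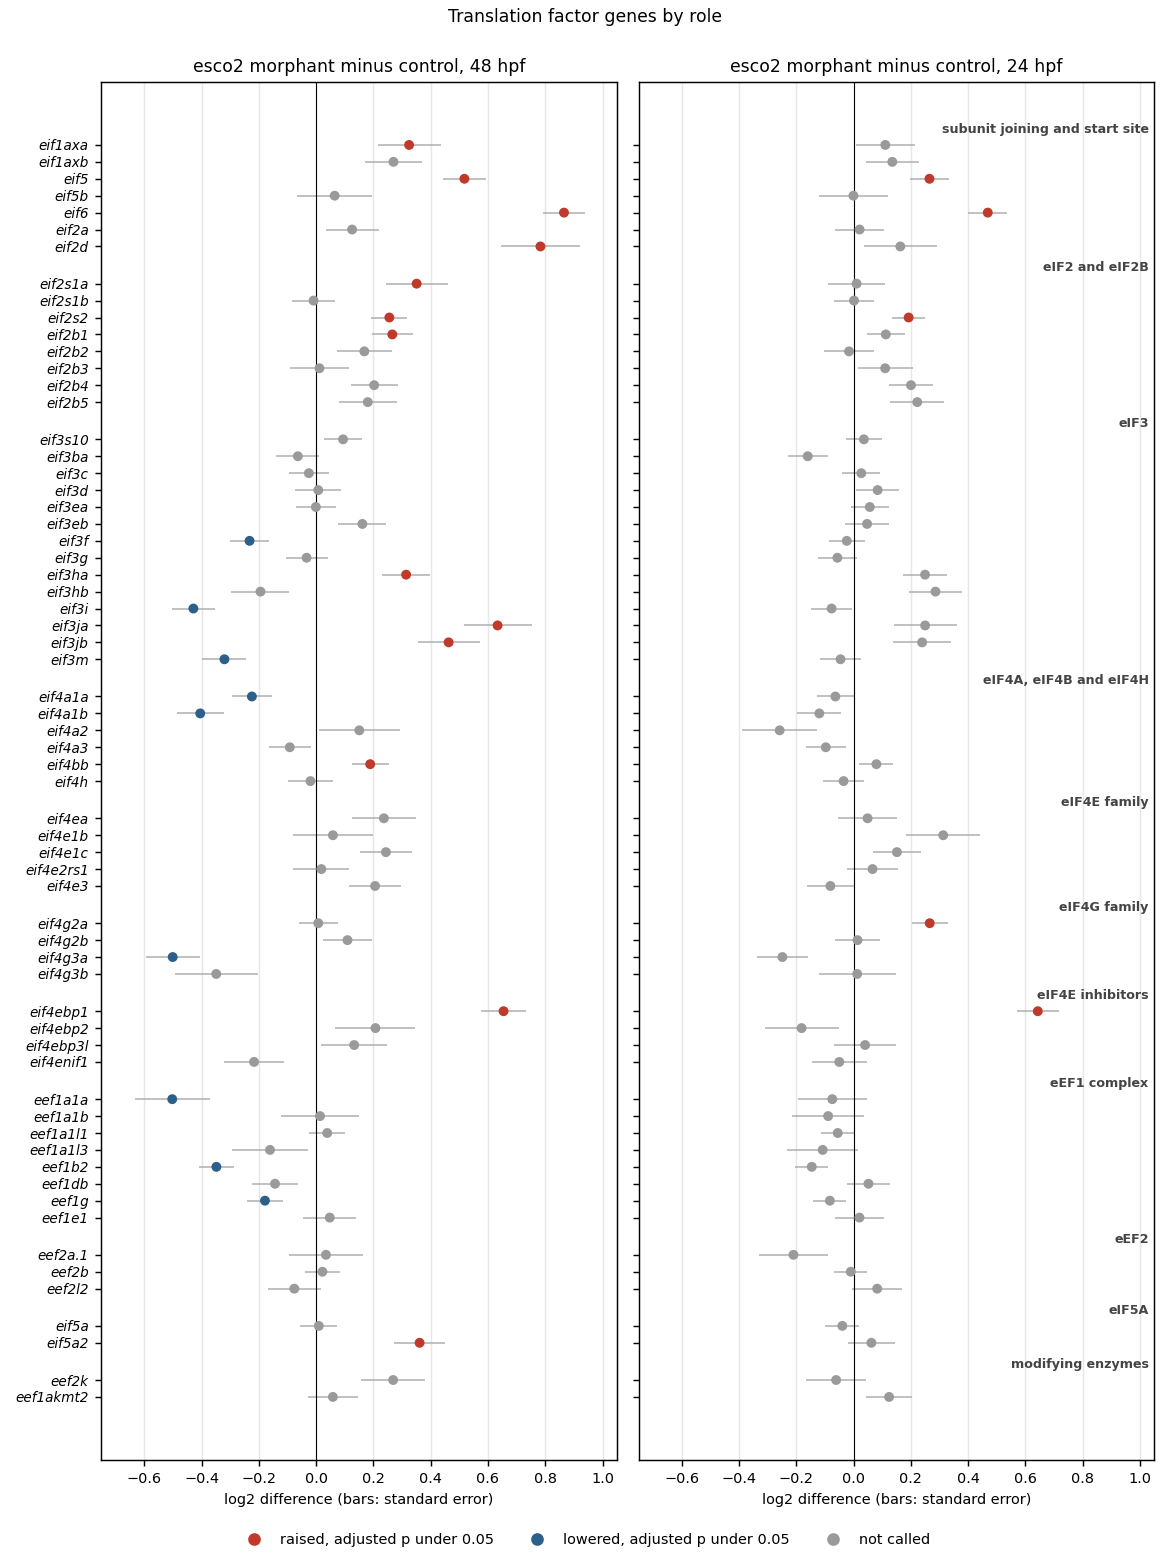
Log2 difference of each of the 63 translation factor genes, *esco2* morphant minus control, at 48 hpf on the left and at 24 hpf on the right, grouped by role (bars are standard errors from limma, red raised and blue lowered at adjusted p under 0.05, grey not called). At 48 hpf 13 genes are raised and 9 lowered, and at 24 hpf 5 are raised and 0 lowered.

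At 24 hpf fewer members were called. In *esco2* morphants 5 of the 63 were raised (*eif4ebp1*, *eif6*, *eif4g2a*, *eif5* and *eif2s2*) and 0 lowered, or 7.94%, where 4.43% of all probe sets were raised and 5.33% lowered (9.77% in all). Of bright genes 15.7% were called, and of the 56 bright members 5. Before adjustment, 12 members were higher and 3 lower at a limma p under 0.05, where 10.8% of all probe sets were higher and 11.9% lower. The median difference was 0.021, against -0.00038 over all probe sets, and no member reached a fold of 2, where 0.381% of all probe sets did upward and 0.103% downward. Arrays did not overlap for 10 members that were higher and 3 that were lower in *esco2* morphants, where 10.0% and 10.9% of all probe sets did not overlap. The count depended on the estimate of spread, with 9 raised and 2 lowered at 24 hpf without control replicate 3 of 48 hpf and 10 raised and 1 lowered with the arrays of 24 hpf fitted alone. In that fit *eif3ha*, *eif3hb*, *eif3ja*, *eif3jb* and *eif4e1b* were raised and *eif4a2* lowered besides the 5. Shares of all probe sets called in these other fits are not given here, so their counts show nothing particular to the members. Of the 5, *eif6*, *eif5*, *eif2s2* and *eif4ebp1* were also raised at 48 hpf. The effects at 48 and 24 hpf were set against each other only through the test of their difference, which called 2 members (3.17%), where 3.75% of all probe sets were called upward and 2.52% downward (6.28% in all). These were *eif6*, whose effect was larger at 48 hpf, and *eif3hb*, whose effect was below 0 at 48 hpf and above 0 at 24 hpf. Before adjustment, the difference was upward in 9 members and downward in 8 at a p under 0.05, where it was upward in 11.8% of all probe sets and downward in 7.64%.

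Of the 7 factors of start site selection and subunit joining, 4 were raised at 48 hpf and 2 at 24 hpf. At either time 0 were lowered. Of all probe sets 12.8% were raised and 9.79% lowered at 48 hpf, and 4.43% and 5.33% at 24 hpf. Of bright genes 33.5% were called in either direction at 48 hpf and 15.7% at 24 hpf. The counts by role, here and in the groups below, stand beside these shares and cover few genes each. Whether roles differ from each other or from these shares was not tested. Under ribosomal protein centring 6 were raised and 0 lowered at 48 hpf. Centring raised 4378 and lowered 761 of all probe sets at that time, against 1988 and 1518 on the deposited scale. A gain in raised genes under centring, here or in the groups below, therefore shows nothing particular to them. The member with the largest difference was *eif6*, whose product binds the large subunit and keeps it from joining too early, besides its part in the making of that subunit. At 48 hpf *eif6* read 8.75, 8.84, 8.70 and 8.77 in *esco2* morphants, against 7.94, 7.82 and 7.95 in controls, a 1.82-fold rise (log2 difference 0.87, SE 0.073, adjusted p = 4.2e-07). At 24 hpf it read 9.42, 9.57, 9.36 and 9.32 in *esco2* morphants, against 8.91, 8.97, 8.96 and 8.94 in controls (log2 difference 0.47, SE 0.068, adjusted p = 1.9e-04). All morphant arrays lay above all control arrays at both times. The effect was larger at 48 hpf by 0.40 (SE 0.10, adjusted p = 0.025), and this difference lost its call in 4 of the 15 fits that leave out 1 array, those without morphant replicate 2 at 48 hpf, morphant replicates 3 or 4 at 24 hpf or control replicate 3 at 24 hpf (0.36 to 0.45 over all 15, highest adjusted p 0.057).

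The gene of the GTPase-activating protein of eIF2, *eif5*, was also raised at both times. At 48 hpf it read 10.54, 10.58, 10.54 and 10.41 in *esco2* morphants, against 10.02, 10.13 and 9.85 in controls, 1.43-fold higher (log2 difference 0.52, SE 0.075, adjusted p = 1.0e-04). At 24 hpf the values were 10.29, 10.19, 10.25 and 10.31 in *esco2* morphants, against 9.99, 9.95, 10.00 and 10.03 in controls, again without overlap (log2 difference 0.26, SE 0.069, adjusted p = 0.021). The call at 24 hpf was lost without morphant replicates 1 or 4 or control replicates 2 or 3 of that time (0.25 to 0.29 over the 15 fits, highest adjusted p 0.063).

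*eif2d* encodes a factor that can place tRNA on the small subunit and helps to recycle ribosomes after termination. At 48 hpf it read 7.93, 7.77, 7.86 and 7.84 in *esco2* morphants, against 7.28, 6.55 and 7.38 in controls (log2 difference 0.78, SE 0.14, adjusted p = 5.4e-04). The groups did not overlap, but the control arrays were widely spread, replicate 3 reading 6.55, and without it the difference was 0.52 (adjusted p = 1.5e-04). At 24 hpf the values were 7.93, 7.88, 7.90 and 8.06 in *esco2* morphants, against 7.79, 7.70, 7.73 and 7.89 in controls and overlapped (log2 difference 0.16, SE 0.13, adjusted p = 0.51). The difference between the times was 0.62 (adjusted p = 0.061), and without control replicate 3 it was 0.36 and called (adjusted p = 0.046), as it was under ribosomal protein centring (0.72, adjusted p = 0.029).

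The genes of eIF1A, which helps the small subunit to scan are a pair of paralogs on the array. *eif1axa* read 7.53, 7.55, 7.68 and 7.63 in *esco2* morphants, against 7.39, 6.91 and 7.52 in controls at 48 hpf (log2 difference 0.32, SE 0.11, adjusted p = 0.042), with the morphants just clear of the controls. Without control replicate 3 the difference of *eif1axa* was 0.14 (adjusted p = 0.24), and 10 of the 15 fits with 1 array left out lost the call. *eif1axb* differed by 0.27 (adjusted p = 0.060) and was not called, and the difference between the paralogs was not tested. Control replicate 3 was the lowest control array of *eif1axb* too, at 9.50 against 9.89 and 9.98. At 24 hpf neither was called (0.11 for *eif1axa* and 0.14 for *eif1axb*). The GTPase gene of subunit joining, *eif5b*, and *eif2a*, which encodes another factor that can bring initiator tRNA, were called at neither time, with differences of 0.065 and 0.13 at 48 hpf and -0.00070 and 0.021 at 24 hpf.

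**Figure D2:**
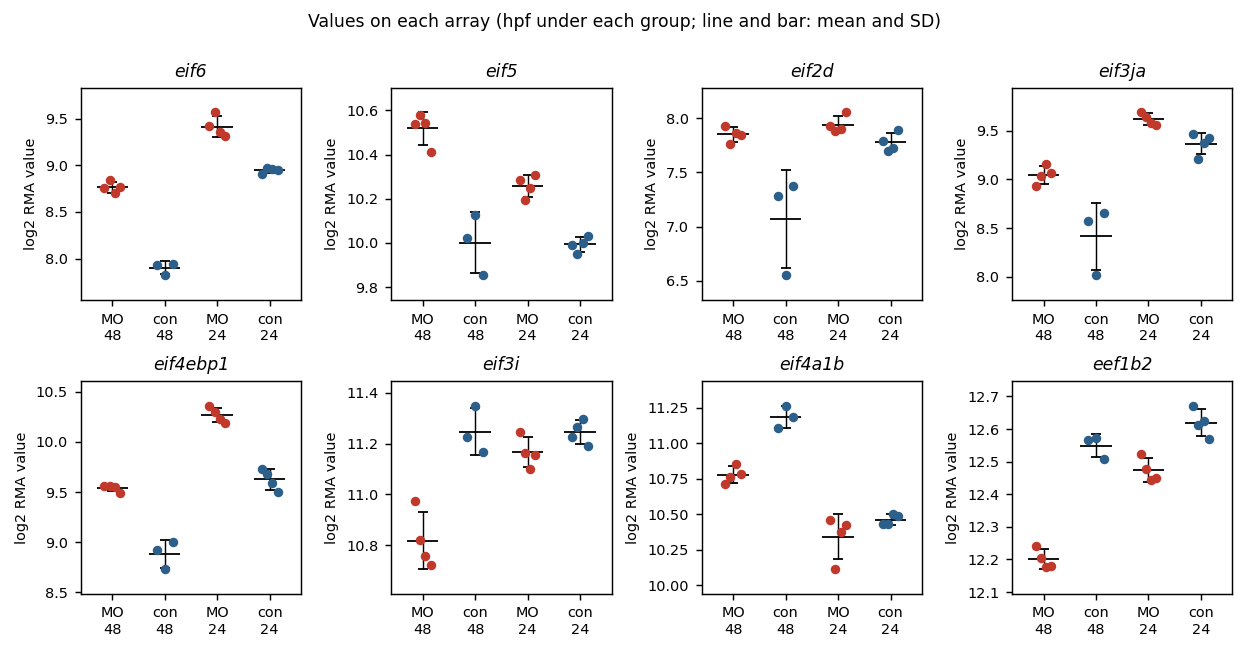
Log2 value on each array for 8 members, with *esco2* morphants (MO, red) left of controls (con, blue) at 48 hpf and then at 24 hpf (points are pools of 50 embryos, the line and bar mean and SD). *eif6*, *eif5* and *eif4ebp1* lie above the controls at both times, *eif3i* and *eif4a1b* below them at 48 hpf, and *eef1b2* below them at both times, called at 48 hpf.

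eIF2 carries the initiator tRNA, and eIF2B reloads it with GTP, a step that stress kinases block through the eIF2 alpha subunit. Of their 8 genes 3 were raised at 48 hpf and 1 at 24 hpf, and 0 were lowered. At 48 hpf 6 were raised under ribosomal protein centring and 0 with that time fitted alone. Over all probe sets, centring took the raised share of the calls at 48 hpf from 56.7% to 85.2%. *eif2s2*, which encodes the beta subunit of eIF2, read 10.26, 10.24, 10.18 and 10.24 in *esco2* morphants, against 9.98, 9.99 and 9.94 in controls at 48 hpf, a narrow spread in both groups (log2 difference 0.26, SE 0.063, adjusted p = 0.0071). At 24 hpf *eif2s2* read 10.75, 10.77, 10.71 and 10.71 in *esco2* morphants, against 10.61, 10.56, 10.47 and 10.52 in controls (log2 difference 0.19, SE 0.059, adjusted p = 0.047), and this call was lost in 12 of the 15 fits that leave out 1 array (0.17 to 0.22, highest adjusted p 0.15) and kept without control replicates 3 or 4 of 48 hpf or control replicate 1 of 24 hpf. *eif2b1*, which encodes the alpha subunit of eIF2B, was raised at 48 hpf, at 8.30, 8.15, 8.16 and 8.18 in *esco2* morphants, against 8.0, 7.95 and 7.85 in controls (log2 difference 0.27, SE 0.072, adjusted p = 0.013), and differed by 0.11 at 24 hpf (adjusted p = 0.35).

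The eIF2 alpha subunit has 2 genes on the array, and only 1 of them was called. *eif2s1a* read 7.98, 8.11, 8.09 and 8.22 in *esco2* morphants, against 7.86, 7.46 and 7.93 in controls at 48 hpf (log2 difference 0.35, SE 0.11, adjusted p = 0.026). Control replicate 3 was the lowest array, and without it the difference was 0.20 and lost its call, as it did without morphant replicates 2 or 4. *eif2s1b* read 9.33, 9.34, 9.38 and 9.52 in *esco2* morphants, against 9.36, 9.44 and 9.40 in controls at 48 hpf, with overlapping groups (log2 difference -0.0090, SE 0.074, adjusted p = 0.95). At 24 hpf the differences were 0.010 for *eif2s1a* and 0.0013 for *eif2s1b*, and the difference between the paralogs was not tested. The remaining eIF2B genes, *eif2b2* to *eif2b5*, were called at neither time and differed by 0.012 to 0.20 at 48 hpf and by -0.016 to 0.22 at 24 hpf.

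eIF3, the large scaffold that binds the small subunit and helps to recruit the mRNA, had 14 members. At 48 hpf 3 were raised and 3 lowered (5 and 1 under ribosomal protein centring), and at 24 hpf 0 were called. With each time fitted alone, 1 was raised and 1 lowered at 48 hpf and 4 were raised at 24 hpf. The raised ones were both genes of the loosely attached subunit j and 1 gene of subunit h. *eif3ja* read 8.93, 9.04, 9.15 and 9.07 in *esco2* morphants, against 8.58, 8.01 and 8.65 in controls at 48 hpf, 1.55-fold higher (log2 difference 0.63, SE 0.12, adjusted p = 8.7e-04). *eif3jb* read 7.25, 7.18, 7.25 and 7.47 in *esco2* morphants, against 6.80, 6.55 and 7.12 in controls (log2 difference 0.46, SE 0.11, adjusted p = 0.0048). In both paralogs control replicate 3 was the lowest array, and without it the differences were 0.43 and 0.33, both still called. At 24 hpf *eif3ja* and *eif3jb* were higher by 0.25 and 0.24, without overlap but short of the threshold (adjusted p = 0.18 and 0.16), which both passed with 24 hpf fitted alone.

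The paralogs of subunit h gave differences of opposite sign at 48 hpf. *eif3ha* read 10.72, 10.60, 10.54 and 10.61 in *esco2* morphants, against 10.25, 10.51 and 10.15 in controls at 48 hpf (log2 difference 0.31, SE 0.084, adjusted p = 0.012), and the call was lost without control replicates 1 or 4 (0.24 at the lowest, highest adjusted p 0.058). At 24 hpf it read 10.96, 11.06, 10.91 and 10.93 in *esco2* morphants, against 10.67, 10.81, 10.70 and 10.69 in controls, also without overlap (log2 difference 0.25, SE 0.078, adjusted p = 0.053). *eif3hb*, a dimmer probe set, read 6.03, 5.96, 5.88 and 5.75 in *esco2* morphants, against 6.07, 6.23 and 6.0 in controls at 48 hpf (log2 difference -0.19, SE 0.10, adjusted p = 0.19). At 24 hpf *eif3hb* read 5.54, 5.72, 5.61 and 5.45 in *esco2* morphants, against 5.54, 5.23, 5.25 and 5.14 in controls (log2 difference 0.29, SE 0.094, adjusted p = 0.064). Neither difference of *eif3hb* was called, but the change between them was (-0.48, SE 0.14, adjusted p = 0.047). That call was lost in 11 of the 15 fits that leave out 1 array (-0.56 to -0.42, highest adjusted p 0.10) and under ribosomal protein centring (-0.38, adjusted p = 0.094). Whether *eif3ha* and *eif3hb* differ from each other was not tested.

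The lowered eIF3 genes encode subunits i, m and f. *eif3i* read 10.97, 10.82, 10.76 and 10.72 in *esco2* morphants, against 11.22, 11.35 and 11.17 in controls at 48 hpf, 1.35-fold lower in *esco2* morphants (log2 difference -0.43, SE 0.076, adjusted p = 5.7e-04), and kept its call in every fit with 1 array left out. *eif3m* read 11.13, 11.15, 11.08 and 11.08 in *esco2* morphants, against 11.35, 11.62 and 11.32 in controls (log2 difference -0.32, SE 0.077, adjusted p = 0.0058). Without control replicate 3, the highest array, the difference of *eif3m* was -0.22 and still called. With 48 hpf fitted alone its call was lost (limma adjusted p = 0.060). *eif3f* read 11.18, 11.09, 11.13 and 11.18 in *esco2* morphants, against 11.35, 11.49 and 11.30 in controls (log2 difference -0.23, SE 0.067, adjusted p = 0.018), and lost its call without control replicate 3 (-0.18) or morphant replicate 2. In all of these the control arrays lay above the morphant arrays. At 24 hpf the same genes differed by -0.077, -0.046 and -0.024, and none was called. The difference of *eif3i* between the times was -0.35 (adjusted p = 0.053). The remaining 8 eIF3 genes (*eif3s10*, which encodes the large subunit a, *eif3ba*, *eif3c*, *eif3d*, *eif3ea*, *eif3eb*, *eif3g* and *eif3hb*) were called at neither time, and among the first 7 of them the differences ran from -0.064 to 0.16 at 48 hpf and from -0.16 to 0.084 at 24 hpf.

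eIF4A is the helicase that unwinds the mRNA leader, with eIF4B and eIF4H as its cofactors. Both eIF4A1 genes were lowered at 48 hpf, *eif4a1b* also under ribosomal protein centring. *eif4a1b* read 10.71, 10.76, 10.86 and 10.79 in *esco2* morphants, against 11.10, 11.26 and 11.18 in controls, 1.32-fold lower (log2 difference -0.40, SE 0.083, adjusted p = 0.0017). *eif4a1a* read 10.85, 10.97, 10.96 and 10.85 in *esco2* morphants, against 11.11, 11.14 and 11.15 in controls (log2 difference -0.22, SE 0.071, adjusted p = 0.030), and this call was lost in 5 of the 15 fits that leave out 1 array, those without morphant replicates 1 or 4 or any of the control arrays of 48 hpf (-0.24 to -0.20, highest adjusted p 0.072). The other probe set of *eif4a1a* was lowered by 0.40 at 48 hpf (adjusted p = 0.0055). *eif4bb* was raised, at 10.58, 10.53, 10.56 and 10.50 in *esco2* morphants, against 10.43, 10.32 and 10.31 in controls (log2 difference 0.19, SE 0.065, adjusted p = 0.043), a call that was lost in 12 of the 15 fits (0.17 to 0.23, highest adjusted p 0.11). *eif4a2*, *eif4h* and *eif4a3*, whose product sits in the exon junction complex, were not called at 48 hpf (0.15, -0.020 and -0.092). At 24 hpf 0 of the 6 genes were called, and their differences ran from -0.26 to 0.080.

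eIF4E binds the cap, and none of its 5 genes was called at either time with all 15 arrays on the deposited scale. Under ribosomal protein centring, which moved the median of all probe sets up by 0.14, 3 were raised at 48 hpf. With 24 hpf fitted alone *eif4e1b* was raised at that time. At 48 hpf all 5 were above 0 on average, by 0.018 to 0.24. *eif4e1c*, a paralog known from fish, read 9.92, 9.94, 9.83 and 9.95 in *esco2* morphants, against 9.81, 9.60 and 9.59 in controls at 48 hpf (log2 difference 0.24, SE 0.090, adjusted p = 0.060) and 10.07, 9.79, 10.01 and 10.01 in *esco2* morphants, against 9.69, 9.78, 9.80 and 10.01 in controls at 24 hpf (log2 difference 0.15, SE 0.083, adjusted p = 0.31). Its groups did not overlap at 48 hpf but missed the threshold, which 3 of the 15 fits with 1 array left out passed. *eif4ea* read 7.26, 7.36, 7.31 and 7.26 in *esco2* morphants, against 7.07, 6.75 and 7.36 in controls at 48 hpf (log2 difference 0.24, SE 0.11, adjusted p = 0.15) and 8.08, 8.19, 8.14 and 7.97 in *esco2* morphants, against 8.17, 7.85, 8.09 and 8.06 in controls at 24 hpf (log2 difference 0.049, SE 0.10, adjusted p = 0.85). The difference of *eif4ea* at 48 hpf was 0.082 without control replicate 3, the lowest array, and 0.39 without control replicate 4, where it was called. *eif4e3* read 7.96, 7.99, 7.87 and 7.83 in *esco2* morphants, against 7.76, 7.52 and 7.83 in controls at 48 hpf (log2 difference 0.21, SE 0.090, adjusted p = 0.11) and 7.44, 7.32, 7.56 and 7.45 in *esco2* morphants, against 7.36, 7.60, 7.55 and 7.59 in controls at 24 hpf (log2 difference -0.081, SE 0.083, adjusted p = 0.63). *eif4e2rs1* read 7.77, 7.94, 7.88 and 7.83 in *esco2* morphants, against 7.89, 7.59 and 8.03 in controls at 48 hpf (log2 difference 0.018, SE 0.10, adjusted p = 0.93) and 8.25, 8.43, 8.15 and 8.21 in *esco2* morphants, against 8.32, 8.14, 8.14 and 8.17 in controls at 24 hpf (log2 difference 0.066, SE 0.090, adjusted p = 0.74). In each of these last genes the groups overlapped at both times. *eif4e1b*, best known from oocytes, was among the 3 dimmest members. It read 4.41, 4.74, 4.07 and 4.55 in *esco2* morphants, against 4.52, 4.39 and 4.25 in controls at 48 hpf (log2 difference 0.059, SE 0.14, adjusted p = 0.82) and 4.49, 4.78, 4.78 and 4.38 in *esco2* morphants, against 4.32, 4.46, 4.31 and 4.09 in controls at 24 hpf (log2 difference 0.31, SE 0.13, adjusted p = 0.15).

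eIF4G is the scaffold between eIF4E, eIF4A and eIF3. Of its 4 genes *eif4g3a* was lowered at 48 hpf and *eif4g2a* raised at 24 hpf. *eif4g3a* read 6.58, 6.47, 6.49 and 6.47 in *esco2* morphants, against 6.95, 7.17 and 6.88 in controls at 48 hpf, 1.42-fold lower (log2 difference -0.50, SE 0.095, adjusted p = 9.6e-04), and 6.14, 5.97, 6.08 and 6.23 in *esco2* morphants, against 6.57, 6.19, 6.38 and 6.29 in controls at 24 hpf (log2 difference -0.25, SE 0.088, adjusted p = 0.086). Its probe sets disagreed in part: a second one was lowered at both times (-0.57, adjusted p = 1.8e-04, at 48 hpf and -0.39, adjusted p = 0.0050, at 24 hpf), and another was not called at 48 hpf (-0.11, adjusted p = 0.57). *eif4g2a* encodes an eIF4G relative that lacks the eIF4E-binding site. It read 10.37, 10.39, 10.49 and 10.31 in *esco2* morphants, against 10.10, 10.08, 10.18 and 10.14 in controls at 24 hpf, without overlap (log2 difference 0.27, SE 0.064, adjusted p = 0.012), and 10.44, 10.47, 10.46 and 10.32 in *esco2* morphants, against 10.39, 10.46 and 10.39 in controls at 48 hpf, where the groups overlapped (log2 difference 0.0075, SE 0.069, adjusted p = 0.96). A second probe set of *eif4g2a* differed by 0.29 at 24 hpf (adjusted p = 0.15) and by -0.31 at 48 hpf (adjusted p = 0.096). *eif4g2b* and *eif4g3b* differed by 0.11 and -0.35 at 48 hpf and were not called.

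The eIF4E-binding proteins hold eIF4E away from eIF4G until mTOR kinase phosphorylates them. *eif4ebp1* was raised at both times and by nearly the same amount. At 48 hpf it read 9.56, 9.56, 9.55 and 9.49 in *esco2* morphants, against 8.92, 8.73 and 9.0 in controls, 1.57-fold higher (log2 difference 0.65, SE 0.080, adjusted p = 2.1e-05). At 24 hpf it read 10.36, 10.30, 10.23 and 10.19 in *esco2* morphants, against 9.73, 9.68, 9.59 and 9.50 in controls, 1.56-fold higher (log2 difference 0.64, SE 0.074, adjusted p = 1.6e-05). All morphant arrays lay above all control arrays at both times, no fit with 1 array left out lost either call, and the difference between the times was 0.011 (SE 0.11, adjusted p = 0.97). The other inhibitor genes were not called. *eif4ebp2* read 10.56, 10.75, 10.76 and 10.81 in *esco2* morphants, against 10.74, 10.03 and 10.76 in controls at 48 hpf (log2 difference 0.21, SE 0.14, adjusted p = 0.32) and 10.39, 10.21, 10.31 and 10.19 in *esco2* morphants, against 10.39, 10.29, 10.52 and 10.63 in controls at 24 hpf (log2 difference -0.18, SE 0.13, adjusted p = 0.46). Control replicate 3 was the lowest array at 48 hpf, and without it the groups of *eif4ebp2* differed by -0.033. *eif4ebp3l* read 7.41, 7.82, 7.82 and 7.86 in *esco2* morphants, against 7.34, 7.86 and 7.58 in controls at 48 hpf (log2 difference 0.13, SE 0.12, adjusted p = 0.46) and 9.28, 9.37, 9.32 and 9.17 in *esco2* morphants, against 9.27, 9.20, 9.28 and 9.25 in controls at 24 hpf (log2 difference 0.040, SE 0.11, adjusted p = 0.88), the groups overlapping at both times. *eif4enif1*, which encodes an eIF4E shuttling protein, differed by -0.22 at 48 hpf and by -0.050 at 24 hpf.

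**Figure D3:**
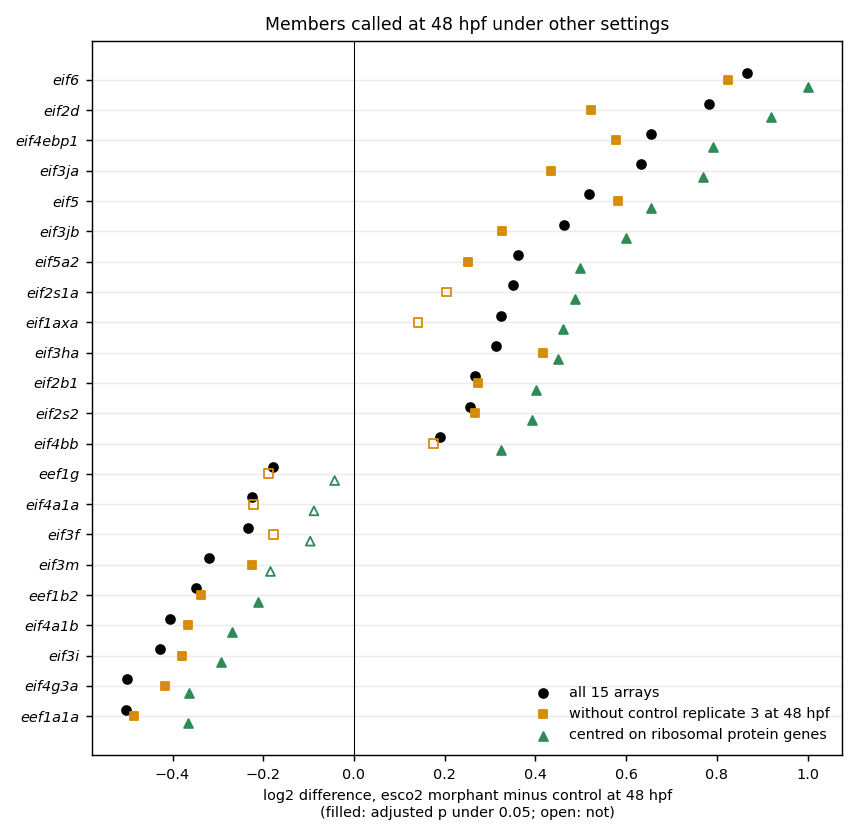
Log2 difference at 48 hpf, *esco2* morphant minus control, of the 22 called members with all 15 arrays (black circles), without control replicate 3 (orange squares) and with each array centred on its ribosomal protein genes (green triangles); filled symbols have an adjusted p under 0.05. Without replicate 3 16 of the 22 keep their call, and under centring 18 of the 22 do.

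Among the elongation factors, 3 of the 8 genes grouped under the eEF1 complex were lowered at 48 hpf (*eef1b2*, *eef1g* and *eef1a1a*) and 0 at 24 hpf. At either time 0 of the 8 were raised (1 raised and 2 lowered at 48 hpf under ribosomal protein centring). *eef1b2* encodes a subunit that exchanges GDP for GTP on eEF1A. It read 12.24, 12.21, 12.18 and 12.18 in *esco2* morphants, against 12.57, 12.57 and 12.51 in controls at 48 hpf (log2 difference -0.35, SE 0.062, adjusted p = 5.9e-04). At 24 hpf *eef1b2* read 12.52, 12.48, 12.44 and 12.45 in *esco2* morphants, against 12.67, 12.61, 12.62 and 12.57 in controls, again without overlap but not called (log2 difference -0.15, SE 0.058, adjusted p = 0.13). *eef1g*, which encodes the structural gamma subunit and was among the 3 brightest members, read 12.74, 12.77, 12.82 and 12.79 in *esco2* morphants, against 12.98, 12.94 and 12.96 in controls at 48 hpf (log2 difference -0.18, SE 0.062, adjusted p = 0.047). Its call was lost in all 15 fits that leave out 1 array (-0.19 to -0.17, highest adjusted p 0.12). At 24 hpf *eef1g* read 12.80, 12.73, 12.78 and 12.76 in *esco2* morphants, against 12.79, 12.85, 12.84 and 12.92 in controls (log2 difference -0.083, SE 0.057, adjusted p = 0.44). *eef1db*, which encodes the delta subunit, and *eef1e1*, whose product sits in the multisynthetase complex, differed by -0.14 and 0.047 at 48 hpf and were not called.

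Of the 4 eEF1A genes, which encode the carrier of aminoacyl-tRNA, *eef1a1a* was called, at 48 hpf, and whether it differs from the others was not tested. *eef1a1l1*, the brightest member, read 13.30, 13.31, 13.31 and 13.31 in *esco2* morphants, against 13.26, 13.25 and 13.29 in controls at 48 hpf (log2 difference 0.039, SE 0.062, adjusted p = 0.72) and 13.34, 13.25, 13.35 and 13.28 in *esco2* morphants, against 13.30, 13.34, 13.41 and 13.39 in controls at 24 hpf (log2 difference -0.055, SE 0.058, adjusted p = 0.64). *eef1a1a* was lowered at 48 hpf, at 5.39, 5.46, 5.58 and 5.66 in *esco2* morphants, against 5.85, 6.06 and 6.17 in controls, 1.42-fold lower (log2 difference -0.50, SE 0.13, adjusted p = 0.0099). At 24 hpf it was dim and read 4.09, 4.57, 4.05 and 4.31 in *esco2* morphants, against 4.11, 4.63, 4.26 and 4.32 in controls (log2 difference -0.074, SE 0.12, adjusted p = 0.79). The groups of *eef1a1a* did not overlap at 48 hpf and overlapped at 24 hpf, and the difference between the times was -0.43 (adjusted p = 0.19). *eef1a1l3* read 5.26, 5.23, 4.90 and 5.13 in *esco2* morphants, against 5.08, 5.64 and 5.15 in controls at 48 hpf (log2 difference -0.16, SE 0.13, adjusted p = 0.43) and 4.91, 5.18, 5.06 and 5.05 in *esco2* morphants, against 4.89, 5.34, 5.12 and 5.27 in controls at 24 hpf (log2 difference -0.11, SE 0.12, adjusted p = 0.67). *eef1a1b*, the dimmest member, read 4.06, 3.81, 3.86 and 4.03 in *esco2* morphants, against 4.21, 4.06 and 3.51 in controls at 48 hpf (log2 difference 0.014, SE 0.14, adjusted p = 0.96) and 2.92, 3.22, 3.32 and 3.32 in *esco2* morphants, against 3.28, 3.40, 3.18 and 3.28 in controls at 24 hpf (log2 difference -0.089, SE 0.13, adjusted p = 0.75).

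eEF2 moves the ribosome by 1 codon at a time, and none of its 3 genes was called between *esco2* morphants and controls. *eef2b*, among the 3 brightest members, read 13.10, 13.07, 13.12 and 13.06 in *esco2* morphants, against 13.06, 13.11 and 13.02 in controls at 48 hpf (log2 difference 0.022, SE 0.061, adjusted p = 0.85) and 13.18, 13.16, 13.17 and 13.16 in *esco2* morphants, against 13.18, 13.22, 13.19 and 13.13 in controls at 24 hpf (log2 difference -0.010, SE 0.057, adjusted p = 0.95). *eef2l2* read 8.04, 8.01, 8.21 and 7.87 in *esco2* morphants, against 7.95, 8.14 and 8.24 in controls at 48 hpf (log2 difference -0.076, SE 0.094, adjusted p = 0.63) and 5.74, 5.68, 5.67 and 5.71 in *esco2* morphants, against 5.77, 5.65, 5.59 and 5.45 in controls at 24 hpf (log2 difference 0.082, SE 0.087, adjusted p = 0.64). *eef2a.1* read 4.52, 4.67, 4.78 and 4.46 in *esco2* morphants, against 4.88, 4.22 and 4.62 in controls at 48 hpf (log2 difference 0.034, SE 0.13, adjusted p = 0.89) and 5.58, 5.50, 5.31 and 5.64 in *esco2* morphants, against 5.87, 5.56, 5.68 and 5.76 in controls at 24 hpf (log2 difference -0.21, SE 0.12, adjusted p = 0.33). In all 3 the groups overlapped at both times. The gene of the kinase that inhibits eEF2, *eef2k*, read 7.11, 7.15, 7.54 and 7.34 in *esco2* morphants, against 6.77, 7.18 and 7.10 in controls at 48 hpf (log2 difference 0.27, SE 0.11, adjusted p = 0.098) and 6.51, 6.52, 6.53 and 6.59 in *esco2* morphants, against 6.70, 6.41, 6.58 and 6.71 in controls at 24 hpf (log2 difference -0.061, SE 0.10, adjusted p = 0.80). It was called raised at 48 hpf once control replicate 3 was left out (0.35, adjusted p = 0.040). *eef1akmt2*, which encodes a methyltransferase of eEF1A, differed by 0.058 at 48 hpf and 0.12 at 24 hpf.

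eIF5A is the protein that carries hypusine, a modified lysine made for it alone. Of its paralogs *eif5a2* was raised at 48 hpf, at 11.55, 11.48, 11.61 and 11.61 in *esco2* morphants, against 11.24, 10.98 and 11.39 in controls (log2 difference 0.36, SE 0.089, adjusted p = 0.0069). The groups did not overlap, and without control replicate 3, the lowest array, the difference was 0.25 and still called, while with 48 hpf fitted alone the call was lost (adjusted p = 0.056). At 24 hpf *eif5a2* read 11.86, 11.67, 11.88 and 11.86 in *esco2* morphants, against 11.70, 11.71, 11.80 and 11.80 in controls (log2 difference 0.062, SE 0.082, adjusted p = 0.73). *eif5a* differed by 0.0092 at 48 hpf and by -0.039 at 24 hpf and was not called, but a second, dimmer probe set of *eif5a* was raised at 24 hpf (0.33, adjusted p = 0.0034) and not at 48 hpf (-0.075, adjusted p = 0.52).

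More members were called between the stages than between morphants and controls. In controls 9 of the 63 members were higher at 48 hpf than at 24 hpf and 26 lower (55.6%), where 20.9% of all probe sets were higher and 25.0% lower (45.9% in all). In *esco2* morphants 11 were higher at 48 hpf and 27 lower (60.3%), where 21.1% of all probe sets were higher and 21.4% lower (42.6% in all). The share of genes at least as bright as the median that were called was 61.4% in controls and 58.8% in *esco2* morphants. Of the 56 members that bright, 30 were called in controls and 33 in *esco2* morphants, so their shares lay near or below it. The median difference of the members, 48 minus 24 hpf, was -0.097 in controls and -0.15 in morphants. Both medians were above 0 under ribosomal protein centring, at 0.052 in controls, with 16 members higher and 21 lower, and at 0.096 in *esco2* morphants, with 27 higher and 15 lower. Higher members were then 43.2% of the calls in controls and 64.3% in morphants, where they were 69.0% and 85.3% over all probe sets. Centring moved the median of all probe sets up by 0.15 in controls and 0.25 in *esco2* morphants. In controls 2 members were at least 2-fold higher at 48 hpf and 5 at least 2-fold lower, where 4.10% and 3.34% of all probe sets were. In *esco2* morphants 2 were at least 2-fold higher and 1 lower, where 3.54% and 1.82% of all probe sets were. Without overlap between the stages, 11 members were higher at 48 hpf and 30 lower in controls, where 21.3% and 24.4% of all probe sets were, and 13 and 31 in *esco2* morphants, where 21.2% and 21.6% were.

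The largest rise with time was that of *eef2l2*, an eEF2-like gene. In controls it read 7.95, 8.14 and 8.24 at 48 hpf, against 5.77, 5.65, 5.59 and 5.45 at 24 hpf, 5.63-fold higher (log2 difference 2.49, SE 0.094, adjusted p = 5.6e-13). In *esco2* morphants the values above gave a difference of 2.33. Both other probe sets of *eef2l2* were higher at 48 hpf in controls too, by 2.00 and 0.86. *eef1a1a* was next, with 5.85, 6.06 and 6.17 at 48 hpf and 4.11, 4.63, 4.26 and 4.32 at 24 hpf in controls (log2 difference 1.70, SE 0.13, adjusted p = 7.8e-09), and a difference of 1.27 in morphants. *eif3hb* was 0.81 higher at 48 hpf in controls and 0.33 higher in morphants. *eif4a1b* was 0.72 higher in controls and 0.43 in morphants, and *eif4g3a* 0.65 and 0.40. All of these changes with time were called in both groups, the highest adjusted p being 0.0088 for *eif3hb* in *esco2* morphants. Of the 9 lowered genes of the 48 hpf comparison, *eef1a1a*, *eif4a1b* and *eif4g3a* were thus higher at 48 hpf than at 24 hpf in both groups. The others were not: *eif3i*, *eif3m*, *eif3f* and *eef1b2* were lower with time in morphants (-0.35, -0.36, -0.37 and -0.27) and not called in controls. *eif4a1a* and *eef1g* were called with time in neither group.

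The largest fall with time was that of *eif4ebp3l*. In controls it read 7.34, 7.86 and 7.58 at 48 hpf and 9.27, 9.20, 9.28 and 9.25 at 24 hpf, 3.15-fold lower (log2 difference -1.65, SE 0.12, adjusted p = 2.1e-09), and in *esco2* morphants the difference was -1.56. *eef2a.1* read 4.88, 4.22 and 4.62 at 48 hpf and 5.87, 5.56, 5.68 and 5.76 at 24 hpf in controls (log2 difference -1.15, SE 0.13, adjusted p = 9.2e-07), with -0.90 in morphants. *eif1axa* read 7.39, 6.91 and 7.52 at 48 hpf and 8.45, 8.24, 8.34 and 8.35 at 24 hpf in controls (log2 difference -1.07, SE 0.11, adjusted p = 3.1e-07), with -0.85 in morphants. *eif6* was lower at 48 hpf by 2.06-fold in controls (log2 difference -1.05, SE 0.073, adjusted p = 2.2e-09) and differed by -0.65 in *esco2* morphants. *eif2s1a* read 7.86, 7.46 and 7.93 at 48 hpf and 8.94, 8.69, 8.66 and 8.85 at 24 hpf in controls (log2 difference -1.03, SE 0.11, adjusted p = 3.7e-07), with -0.69 in morphants. The time contrasts of controls and of morphants share no array, whereas each shares arrays with the morphant comparisons given above.

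**Figure D4:**
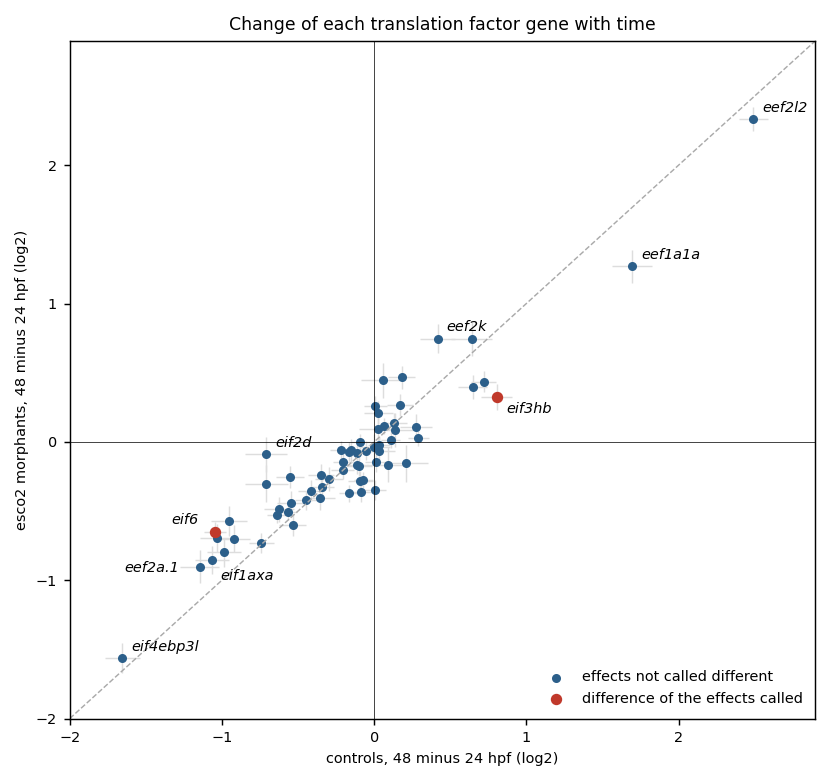
Change of each of the 63 members between the stages, 48 minus 24 hpf on the log2 scale, in controls (horizontal axis) and in *esco2* morphants (vertical axis), with standard errors as thin lines and the line of equal change dashed. *eef2l2* (2.49 in controls and 2.33 in morphants) and *eif4ebp3l* (-1.65 and -1.56) lie at the ends, and red points are *eif6* and *eif3hb*, whose changes were called different.

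**Figure D5:**
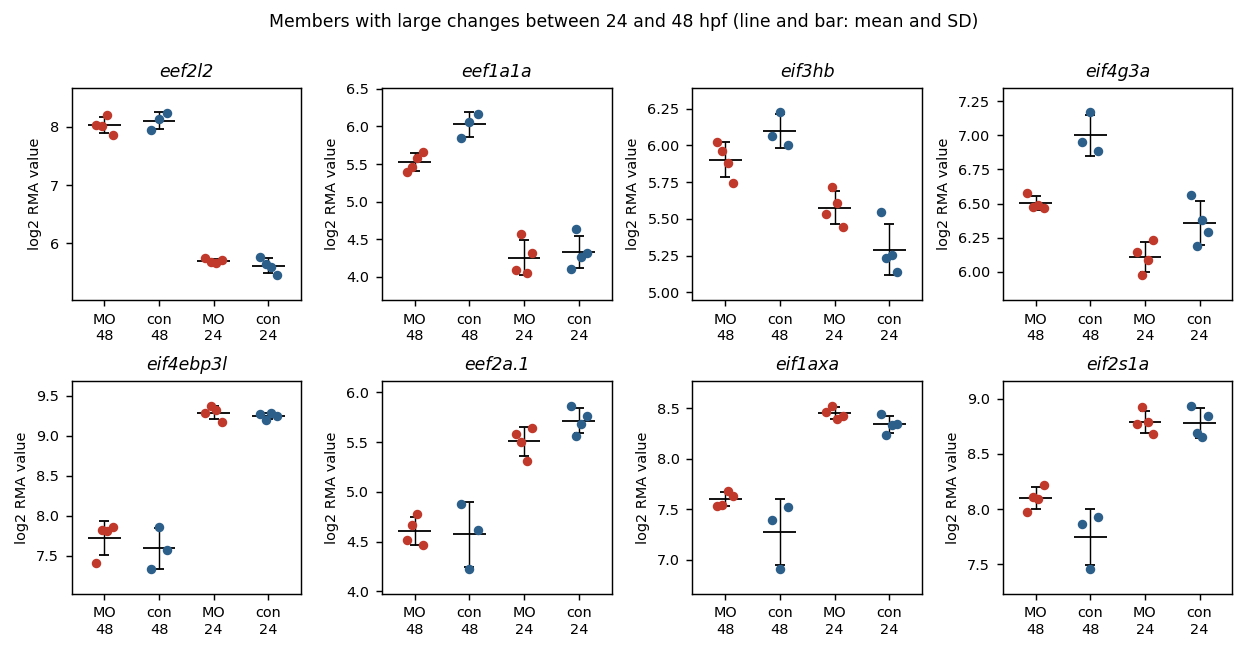
Log2 value on each array for 8 members with large changes between the stages, with *esco2* morphants (MO, red) left of controls (con, blue) at 48 hpf and then at 24 hpf (points are pools, the line and bar mean and SD). The top 4 genes are higher at 48 hpf in both groups and the bottom 4 lower.

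Other genes of translation were counted in the same fits. Of 19 measured genes of cytosolic aminoacyl-tRNA synthetases and their scaffold, which charge tRNA, 6 were raised and 0 lowered at 48 hpf (median 0.21), and 2 raised at 24 hpf (median 0.11). Of all probe sets 12.8% were raised and 9.79% lowered at 48 hpf, and 4.43% and 5.33% at 24 hpf. Among genes at least as bright as the median, 33.5% were called in either direction at 48 hpf and 15.7% at 24 hpf. *iars1* was raised at both times (0.68, adjusted p = 2.5e-05, at 48 hpf and 0.27, adjusted p = 0.038, at 24 hpf), as was *qars1* (0.54 and 0.32), and *yars1* and *kars1* were raised at 48 hpf (0.54 and 0.43). Of the enzymes that make hypusine on eIF5A or diphthamide on eEF2, 2 of 5 were raised at 48 hpf and 2 at 24 hpf, with 0 lowered. *dph1*, which acts first in diphthamide synthesis, averaged 6.82 ± 0.12 (SD, n = 4) in *esco2* morphants and 6.09 ± 0.28 (SD, n = 3) in controls at 48 hpf (adjusted p = 1.8e-04) and was raised by 0.37 at 24 hpf. *dhps*, the first enzyme of hypusine synthesis, was raised at 48 hpf (0.37) and *dohh*, the second, at 24 hpf (0.31).

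The genes of the signals that act on eIF4E and eIF2 moved in both directions. In the mTOR and eIF4E list 1 of 11 was raised and 2 were lowered at 48 hpf, and 1 raised and 2 lowered at 24 hpf. *pdcd4b*, which encodes an inhibitor of eIF4A, was lowered at both times (-0.68, adjusted p = 4.4e-05, and -0.44, adjusted p = 0.0023). *rheb*, which encodes the activator of mTOR, was lowered at 48 hpf (-0.53), the eIF4E kinase gene *mknk2a* was raised at 48 hpf (0.49), *mknk1* was lowered at 24 hpf (-0.34) and *mtor* was raised at 24 hpf (0.26). The single eIF2 kinase measured, *eif2ak3*, was lowered at 48 hpf (-0.27, adjusted p = 0.043). Of 8 targets of the integrated stress response, which follows eIF2 phosphorylation, 3 were raised and 1 lowered at 48 hpf, and 1 raised and 1 lowered at 24 hpf. *atf3* was raised at both times (0.92 and 0.99), the asparagine synthetase gene *asns* (0.55) was raised and *chac1* lowered (-0.29) at 48 hpf, and the serine synthesis gene *psat1* was lowered at 24 hpf (-0.57). *atf4a* itself was raised at 48 hpf (0.26, adjusted p = 0.039).

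Release and recycling factors had 1 of 6 raised at 48 hpf, the ribosome recycling gene *abce1* (0.30, adjusted p = 0.030), and 0 called at 24 hpf. Poly(A) binding proteins and their partners had 0 of 8 called at either time, where limma without adjustment had 1 higher and 1 lower at 48 hpf and 1 higher at 24 hpf at a p under 0.05. Mitochondrial translation factors had 1 of 6 raised at each time, *mrrf*, which encodes the mitochondrial ribosome recycling factor (0.49 at 48 hpf and 0.40 at 24 hpf). The counts of all these lists stand beside 12.8% raised and 9.79% lowered of all probe sets at 48 hpf and 4.43% and 5.33% at 24 hpf. They also stand beside 33.5% of bright genes called in either direction at 48 hpf and 15.7% at 24 hpf.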

How the data were processed

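Total RNA from pools of whole embryos was labelled and hybridized to Affymetrix GeneChip Zebrafish Genome Arrays, and the deposited log2 values are the authors' RMA values (background correction, quantile normalization and probe summary over the arrays), 1 per probe set and array. Control replicate 2 of 48 hpf, which the labels call faulty, was not analysed here. The table holds 15617 probe sets, of which 115 are Affymetrix controls and were dropped. Of the remaining 15502, 10795 carried 1 gene symbol in the platform annotation, 135 several and 4572 none. That annotation is old. No probe or gene sequence was used here, so probes shared by near-identical paralogs were not examined.

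Group means over the 4 groups were fitted with limma 3.58.1 in R 4.3.3 (lmFit, eBayes, Benjamini-Hochberg adjustment over 15502 probe sets, 5% false discovery rate). Contrasts were *esco2* morphant minus control at each time, the difference of these effects (48 minus 24 hpf), and 48 minus 24 hpf within controls and within morphants. A SE is the contrast's moderated standard error. Nothing in the labels ties pools to separate matings or days, so p-values measure the spread between pools. In simulated data with 100 probe sets shifted by 0.5 on the log2 scale, 67 were found at 48 hpf and 76 at 24 hpf. With a shift of 1, 99 and 100 of 100 were found. Among the simulated probe sets that were not shifted, 20 were called at 48 hpf and 8 at 24 hpf. Far fewer probe sets were shifted than the 3506 called at 48 hpf in the data, so these rates need not hold for the data. How often such shifts are found with 1 control array of 48 hpf apart from its group was not tested.

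The genes given array by array were, for each time, up to 8 called members with the largest difference in each direction, members with a called difference between the times, the 5 with the largest change between stages in each direction in controls, every eIF4E-binding protein, eIF4E, eEF1A and eEF2 gene with *eef2k*, and the 3 brightest and 3 dimmest. A few others were given after their values were seen. In the lists of other translation genes (release and recycling, poly(A) binding, eIF2 kinases, mTOR and eIF4E control, integrated stress response, hypusine and diphthamide, aminoacyl-tRNA synthetases, mitochondrial factors) up to 4 called genes were named by smallest p. These lists and those of tissue markers (skeletal and heart muscle, neurons, erythroid and cycling cells, germ cells, epidermis, lens, liver and yolk), like the members, were chosen with earlier results of these data known. Alternatives were each array left out in turn, a block for the replicate number, the times fitted separately, bright probe sets only, cyclic loess, centring on 70 ribosomal protein genes, array weights, limma's trend and robust options, averaging a gene's probe sets, and an added fold of 2. Figures were drawn with matplotlib 3.10.9.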

Additional observations from a re-analysis of the deposited data

Results flagged for a closer look

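In 3 of 105 groups of 4 arrays, over 35 of the members, 1 array lay far from the others of its group by Dixon's ratio, where chance gives about 1 in 20 groups. *eif4ebp1* in *esco2* morphants at 48 hpf had a ratio of 0.908, replicate 4 reading 9.49 and the nearest array 9.55. *eif5a2* in *esco2* morphants at 24 hpf had a ratio of 0.918, replicate 2 reading 11.67 and the nearest array 11.86. *eif4ebp3l* in *esco2* morphants at 48 hpf had a ratio of 0.904, replicate 1 reading 7.41 and the nearest array 7.82.

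The effect of the morpholino differed between the times in 2 members by the limma test of the difference, 48 minus 24 hpf: *eif6* (0.397, adjusted p = 0.025) and *eif3hb* (-0.48, adjusted p = 0.047).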

How the results depend on the processing

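The 22 calls of 48 hpf rest on 3 control arrays, of which 1 stood apart, and 15 of the 22 were kept in all 15 fits that leave out 1 array. At 24 hpf 3 of 5 calls were kept, in controls with time 30 of 35, in *esco2* morphants with time 34 of 38. Of the 2 calls for the difference between the times 0 were kept in all fits. Over the 15 fits the counts ran from 10 to 13 raised and 6 to 9 lowered at 48 hpf, 3 to 9 raised and 0 to 2 lowered at 24 hpf, and 0 to 3 upward and 0 to 2 downward for the difference between the times. Signs were followed for 35 of the members, those named by the rule above. Leaving out 1 array turned the sign of some of these that were not called: at 48 hpf *eef1a1b* (-0.20 to 0.15), *eif4e1b* (-0.040 to 0.18), *eif4e2rs1* (-0.11 to 0.12), *eef2a.1* (-0.14 to 0.19), *eif4ebp2* (-0.033 to 0.33), *eef1a1l3* (-0.27 to 0.012) and *eef2b* (-0.00026 to 0.047), and at 24 hpf *eef1a1b* (-0.13 to 0.0019), *eef2b* (-0.028 to 0.0042), *eif4ea* (-0.017 to 0.092) and *eef1a1a* (-0.18 to 0.025). Among the other members, *eif1axb*, *eif5b*, *eif3s10*, *eif4a2*, *eif4g2b*, *eef1e1* and *eif5a* also had control replicate 3 as their lowest control array at 48 hpf. Their differences without it are not given here. Of 1446 values of single genes under all alternatives 1329 kept their direction and call, 73 lost their call, 17 gained one and 27, all of genes not called, changed sign.

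Arrays of 1 replicate number were treated as unpaired, since the deviations of same-numbered arrays had correlations of -0.14, -0.45 and -0.076 at 48 hpf. At 24 hpf these were 0.20, 0.12, 0.021 and 0.12, and 3 of 4 morphant arrays correlated best with the control of their own number, a hint from the data and not from the design. With the number as a block 12 members were raised and 7 lowered at 48 hpf, 4 and 0 at 24 hpf, and 2 and 1 differed between the times. Calls of *eif2s2* at 24 hpf (adjusted p = 0.077) and of *eif4a1a* (0.071), *eef1g* (0.098), *eif1axa* and *eif4bb* at 48 hpf were lost under the block, and those of *eef2k* at 48 hpf and of *eif2d* between the times (0.64, adjusted p = 0.043) were gained. With time the block gave 9 and 25 in controls and 11 and 27 in *esco2* morphants. *eif4e1b* (-0.012) and *eif4e2rs1* (-0.0032) changed sign at 48 hpf under the block.

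With each time fitted alone, which leaves fewer arrays for the spread, 5 were raised and 5 lowered at 48 hpf and 10 and 1 at 24 hpf. Ribosomal protein centring gave 26 raised and 5 lowered at 48 hpf (median 0.18), 3 upward and 0 downward for the difference between times, 16 higher with time in controls (median 0.052) and 27 higher and 15 lower in *esco2* morphants (median 0.096), and turned *eef2l2* at 48 hpf (0.060) and *eef2b* at 24 hpf (0.024). Array weights gave 11 raised and 3 lowered at 24 hpf, 4 upward and 2 downward between times, and turned *eif4e2rs1* (-0.019), *eef1a1b* (-0.17), *eef1a1l3* (0.049), *eef2a.1* (-0.18) and *eef2l2* (0.0075) at 48 hpf. Cyclic loess gave 2 downward between times and turned *eif4e2rs1* (-0.0057) and *eef2a.1* (-0.019) at 48 hpf. Trend and robust options gave 1 lowered at 24 hpf and 2 upward and 3 downward between times, bright probe sets alone 2 upward, and averaging the probe sets of a gene 3 downward. With a fold of at least 2 added, 0 were raised and 0 lowered at 48 hpf, 0 raised at 24 hpf and 0 upward and 0 downward between times, and with time 2 higher and 5 lower in controls and 2 and 1 in *esco2* morphants. The causes of these changes were not tested. Shares of all probe sets are not given here for the separate fits, the fits that leave out 1 array, the block, array weights or other limma options. No detection calls were used here, and signal over background limits most the dimmest members, *eef1a1b* and *eif4e1b*.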
